A study of Mus musculus with 6 samples.

Results

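The nuclear-encoded subunits of respiratory complex I were examined in bulk RNA sequencing of white fat from beneath the skin of mice. Members were the genes whose symbol is Nduf followed by a, b, c, s or v and a number, together with Ndufab1 and without Ndufa4, which belongs to complex IV. The rule found 36 genes among the 36144 gene rows of the deposited table, and all 36 passed the filter on low values and were tested. There were 6 libraries, 3 titled WT and 3 titled Tumor. The genotype label calls the first set wild type for Msra and the second a full-body Msra knockout, and all 6 carry an orthotopic transplant as treatment. The design text places pancreatic ductal adenocarcinoma cells in wild-type and knockout hosts, with collection of the fat 4 to 5 weeks later. The title of the series instead contrasts tumour-bearing mice with controls without a tumour. The labels used here name no strain, age, sex or tumour line, and the titles call the libraries of a group biological replicates. Libraries are named here by their titles. The sample codes of both groups come from ranges far apart, and the labels do not say what the codes mark. A difference between collections, if there was one, and the difference between groups cannot be told apart. Levels are given in TPM, in which each library's length-corrected transcript abundances add up to the same total, so that different genes can be set side by side. The number of reads behind each library is not known.

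Msra, the gene named in the genotype label, stood at 51.1, 59.1 and 56.3 TPM in WT replicates 1, 2 and 3 and at 52.9, 40.0 and 26.9 TPM in Tumor replicates 1, 2 and 3, so the libraries called knockout all held its transcript. All 10 adipocyte markers, such as Adipoq and Plin1, were at 1 TPM or more in every library, and their summed level ran from 12933 TPM in Tumor replicate 3 to 55271 TPM in WT replicate 3. B and plasma cell markers summed to 7.24 TPM in WT replicate 3 and 10.6 TPM in Tumor replicate 1 but to between 949.8 and 2628 TPM in the other 4 libraries, a division that crosses the groups. In bulk tissue, fewer cells of a type and less RNA per cell cannot be told apart.

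Complex I is the first enzyme of the mitochondrial respiratory chain. It takes electrons from NADH, passes them along a line of iron-sulphur clusters to ubiquinone, and pumps protons across the inner membrane. Its peripheral arm holds the N module, where NADH is oxidised, and the Q module, where ubiquinone is reduced, and its membrane arm holds the proton channels. The channel proteins come from the mitochondrial genome, and the nuclear genes supply the catalytic core of the peripheral arm and many accessory subunits of both arms. In adipocytes the enzyme feeds the respiration that backs lipid synthesis and, in brown and beige cells, heat production.

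Complex I transcripts were lower in the libraries titled Tumor, and the difference ran through the whole set of subunits. The 36 subunits together took 9078, 11587 and 9780.0 TPM in WT replicates 1, 2 and 3 and 8152, 7432 and 5789 TPM in Tumor replicates 1, 2 and 3. Every Tumor library thus lay below every WT library, with WT replicate 2 the highest and Tumor replicate 3 the lowest. The Tumor mean was 70.2% of the WT mean. All 36 subunits had a negative log2 difference, where 23.2% of the 14144 genes tested did. For 31 of the 36 every Tumor library was below every WT library, where 3.24% of all genes tested were arranged in this way. No subunit passed the test between the groups, nor did any other gene in either direction (0%, smallest limma adjusted p of all genes 0.206). By limma 0 of the 36 had an adjusted p below 0.05, and 18 had an unadjusted p below 0.05, all lower, against 1.70% of all genes. Higher differences with an unadjusted p below 0.05 made up 3.75% of all genes, and 11.8% had every Tumor library above every WT library. The count of 18 was 0 when WT replicate 2 was left out, 7 for WT replicate 3 and 9 for WT replicate 1. It was 3 when Tumor replicate 3 was left out and 4 for Tumor replicate 2. The median log2 difference of the subunits was -0.47, with single subunits between -0.77 and -0.28, and that of all genes tested was 0.23. Median-ratio factors, which scale each library to the typical gene, moved the median of all genes by -0.19 to 0.04 and that of the subunits to -0.69. The distance between both medians was -0.71 as deposited and -0.73 with these factors. With these factors 44.6% of all genes tested had a negative difference.

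**Figure D1:**
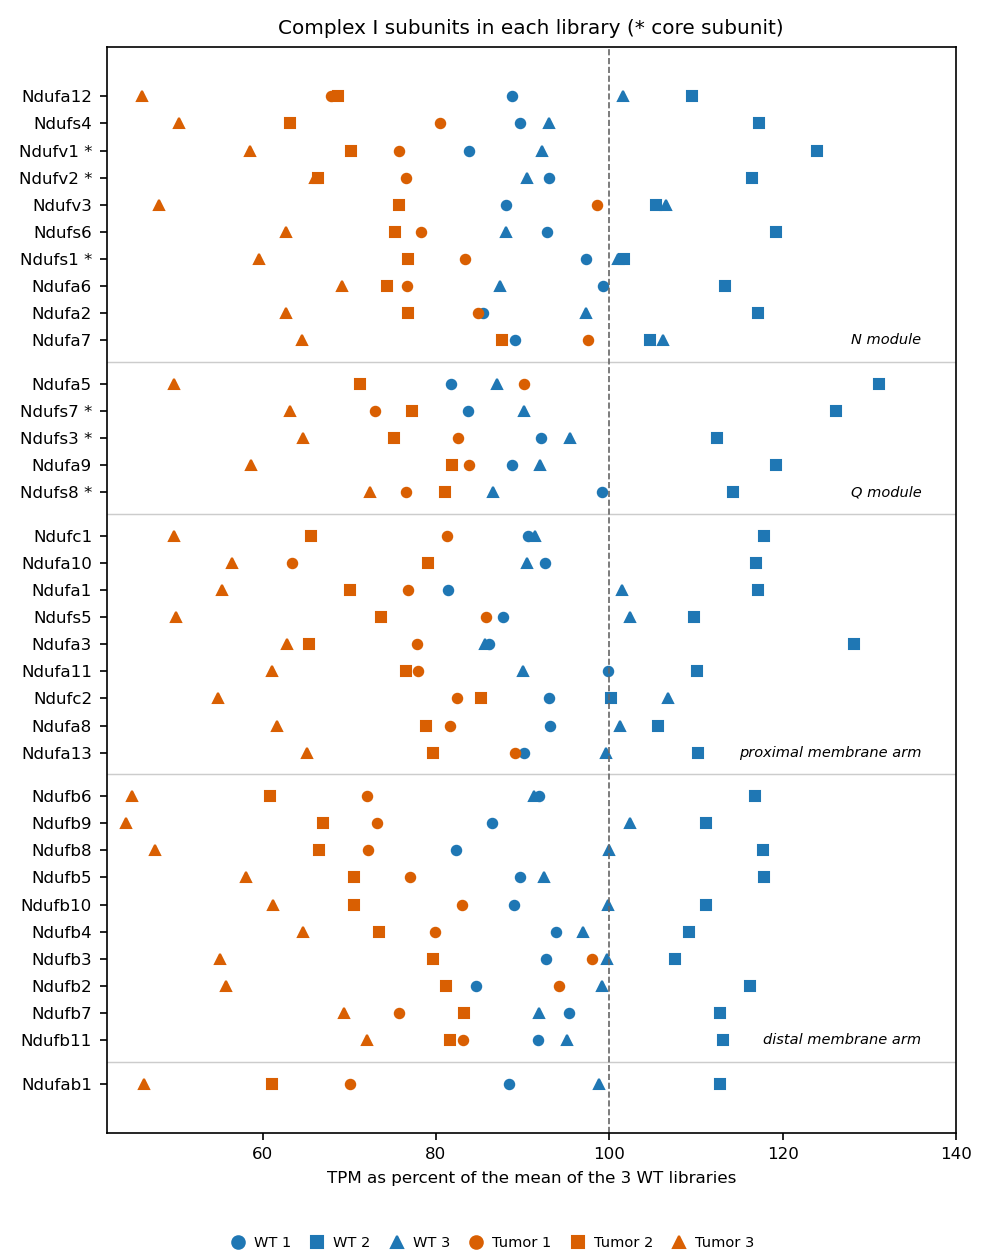
Each row is 1 of 35 complex I subunits and each symbol 1 library, placed at its TPM as a percentage of the mean of the 3 WT libraries (dashed line at 100). Tumor replicate 3 is the lowest library in all 35 rows, and the WT and Tumor symbols are fully apart in 30 of them.

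The libraries kept much the same place for every subunit. Tumor replicate 3 was the lowest library for all 36, at a median of 59.1% of the WT mean and between 44.2% for Ndufb9 and 72.4% for Ndufs8. Tumor replicate 2 stood at a median of 75.2% and Tumor replicate 1 at 80.2%. Tumor replicate 1 was the highest of its group for 30 subunits and Tumor replicate 2 for the other 6. Among the libraries titled WT, replicate 2 was the highest for 33 subunits and above the WT mean for all 36, while replicate 1 was the lowest for 27 and replicate 3 for 9. WT replicate 3 and Tumor replicate 1, both poor in lymphoid transcripts, were set side by side as 1 library against 1: the subunits of Tumor replicate 1 stood at a median of 84.1% of WT replicate 3, and 35 of 36 were lower. This pair differed in other markers, with skeletal muscle sums of 9.83 TPM in WT replicate 3 and 1830.5 TPM in Tumor replicate 1 and macrophage sums of 1597 and 3973 TPM. In the 4 libraries rich in lymphoid transcripts the mean of Tumor replicates 2 and 3 was a median of 65.7% of the mean of WT replicates 1 and 2, and all 36 were lower. The sum over the subunits in Tumor was 64.0% of WT in these 4 libraries.

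The N module carries the NADH-binding end of the enzyme. Ndufv1 binds NADH and the flavin that takes up its electrons. Its level was 173, 256 and 190 TPM in WT replicates 1 to 3 and 156, 145 and 121 TPM in Tumor replicates 1 to 3, without overlap of the groups. The means were 206 ± 43.7 and 141 ± 18.2 TPM (SD, n = 3), a log2 difference of -0.54 (limma, SE 0.21, adjusted p = 0.737). Ndufv2, which holds an iron-sulphur cluster beside the flavin, stood at 237, 297 and 231 TPM against 195, 169 and 168 TPM. These groups were apart as well, and WT replicate 2 was again the highest. For Ndufs1, the largest subunit and the carrier of several clusters, the values were 104, 109 and 108 TPM against 89.4, 82.2 and 63.8 TPM. The 3 WT values of Ndufs1 lay close together, with an SD of 2.53 TPM, and the 3 Tumor values were spread by 13.2 TPM.

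Among the 7 accessory subunits of the N module the difference was largest for Ndufa12, which takes the place of the assembly factor Ndufaf2 in the finished enzyme. Ndufa12 stood at 267, 330 and 306 TPM in the WT libraries and at 204, 207 and 139 TPM in the Tumor libraries, a log2 difference of -0.73 (limma, SE 0.22, adjusted p = 0.737). The Tumor mean was 60.9% of the WT mean. Ndufs4, which steadies the attachment of the N module and is mutated in Leigh-like mitochondrial disease, was at 220, 288 and 228 TPM against 198, 155 and 124 TPM, also without overlap. The smallest difference of all 36 subunits was that of Ndufa7, with 336, 395 and 400.4 TPM against 368, 330.3 and 243 TPM. Here Tumor replicate 1 was above WT replicate 1, so the groups overlapped, and the log2 difference was -0.28 (limma, SE 0.22, adjusted p = 0.749). Ndufv3, a small accessory subunit, overlapped in the same way, with 403 TPM in Tumor replicate 1 and 360 TPM in WT replicate 1. The other accessory subunits here, Ndufs6, Ndufa2 and Ndufa6, had log2 differences from -0.46 to -0.42 and no overlap. Over the 10 members of the N module the median log2 difference was -0.47.

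The Q module passes electrons to ubiquinone. Ndufs7, the carrier of the last cluster before ubiquinone, stood at 224, 338 and 241 TPM in the WT libraries and at 195, 207 and 169 TPM in the Tumor libraries. It was lower in every Tumor library than in any WT library. Ndufs3 was at 225, 274 and 233 TPM against 201, 183 and 158 TPM. Ndufs8, which carries the clusters between the flavin end and Ndufs7, was at 179, 206 and 156 TPM against 138, 146 and 131 TPM. The difference of Ndufs8 was the smallest in the Q module, -0.37 on the log2 scale (limma, SE 0.17, adjusted p = 0.737). The largest was that of the accessory subunit Ndufa5, at -0.51 (limma, SE 0.30, adjusted p = 0.737), yet its groups overlapped. Ndufa5 stood at 218, 350.0 and 232 TPM against 240 TPM in Tumor replicate 1, 190.1 TPM in Tumor replicate 2 and 133 TPM in Tumor replicate 3. It was the 1 subunit above WT replicate 3 in Tumor replicate 1, at 103% of it. Ndufa9, which binds a nucleotide near the junction of both arms, was at -0.42 without overlap. The median of the 6 Q module members was -0.43, and that of the 7 core subunits of both modules was -0.46. The 29 accessory subunits had a median of -0.49.

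All 9 members of the proximal membrane arm, the part next to the peripheral arm, were lower without overlap, with a median log2 difference of -0.52. Ndufc1 had the largest difference, with 358, 466 and 362 TPM in the WT libraries and 321, 259 and 197 TPM in the Tumor libraries (log2 difference -0.63, limma, SE 0.25, adjusted p = 0.737). Ndufa13, a membrane-spanning subunit also known as GRIM-19, had the smallest, with 143, 175 and 158 TPM against 142, 127 and 103 TPM (log2 difference -0.36, limma, SE 0.18, adjusted p = 0.737). For Ndufa13 the gap between WT replicate 1 and Tumor replicate 1 was under 2 TPM. Ndufa10, which has the fold of a nucleoside kinase, was 1 of the 6 subunits with Tumor replicate 2 as the highest of its group. It stood at 132 TPM in Tumor replicate 1, 165 TPM in Tumor replicate 2 and 118 TPM in Tumor replicate 3, against 193, 244 and 189 TPM in the WT libraries. Tumor replicate 1 was at 63.3% of the WT mean for Ndufa10, the lowest value of any subunit in that library. Ndufa1 and Ndufa11, Ndufa3 and Ndufa8, and Ndufs5 and Ndufc2 made up the rest, with log2 differences between -0.57 and -0.44.

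The distal membrane arm ends in the outermost proton channels. Ndufb6 had its largest difference, with 207, 263 and 206 TPM in the WT libraries and 162, 137 and 101 TPM in the Tumor libraries (log2 difference -0.77, limma, SE 0.23, adjusted p = 0.737). Ndufb9, a subunit of the LYR family that binds the acyl carrier protein Ndufab1, stood at 391, 502 and 463 TPM against 331, 302 and 199.7 TPM. Ndufb8, often used as the antibody marker of the assembled enzyme, stood at 383, 547 and 465 TPM against 335, 309 and 221 TPM. These 3 subunits had Tumor means of 59.2%, 61.4% and 62.0% of the WT means. The smallest difference was that of Ndufb11, the product of an X-linked gene, with 206, 254 and 214 TPM against 187, 183 and 162 TPM (log2 difference -0.34, limma, SE 0.17, adjusted p = 0.737). Ndufb2 and Ndufb3 overlapped between the groups, again through Tumor replicate 1 alone. Ndufb3 stood at 224 TPM there and at 212 TPM in WT replicate 1, and Ndufb2 at 197 TPM there and at 177 TPM in WT replicate 1. Ndufb4, Ndufb5, Ndufb7 and Ndufb10 did not overlap, at log2 differences of -0.45, -0.54, -0.39 and -0.49. The median of the 10 members was -0.47. The 5 subunits with overlap, Ndufa5, Ndufa7, Ndufb2, Ndufb3 and Ndufv3, were named after their values were seen, and without Tumor replicate 1 all 36 were free of overlap.

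Ndufab1 is the mitochondrial acyl carrier protein. It sits in both arms of complex I and also serves mitochondrial fatty acid synthesis. It had the highest mean level of the 36 and the largest difference. The values were 456, 580.4 and 509 TPM in the WT libraries and 361, 314 and 239 TPM in the Tumor libraries, means of 515 ± 62.7 and 304 ± 61.5 TPM (SD, n = 3) and a log2 difference of -0.77 (limma, SE 0.23, adjusted p = 0.737). Its share of the complex I sum was 5.02%, 5.01% and 5.20% in the WT libraries and 4.42%, 4.23% and 4.12% in the Tumor libraries, again without overlap. The N module took 27.7% to 28.4% of the sum in the WT libraries and 28.5% to 29.1% in the Tumor libraries. The distal membrane arm took 27.0% to 27.5% and 26.4% to 26.9%. For the Q module and the proximal arm the shares overlapped between the groups.

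**Figure D2:**
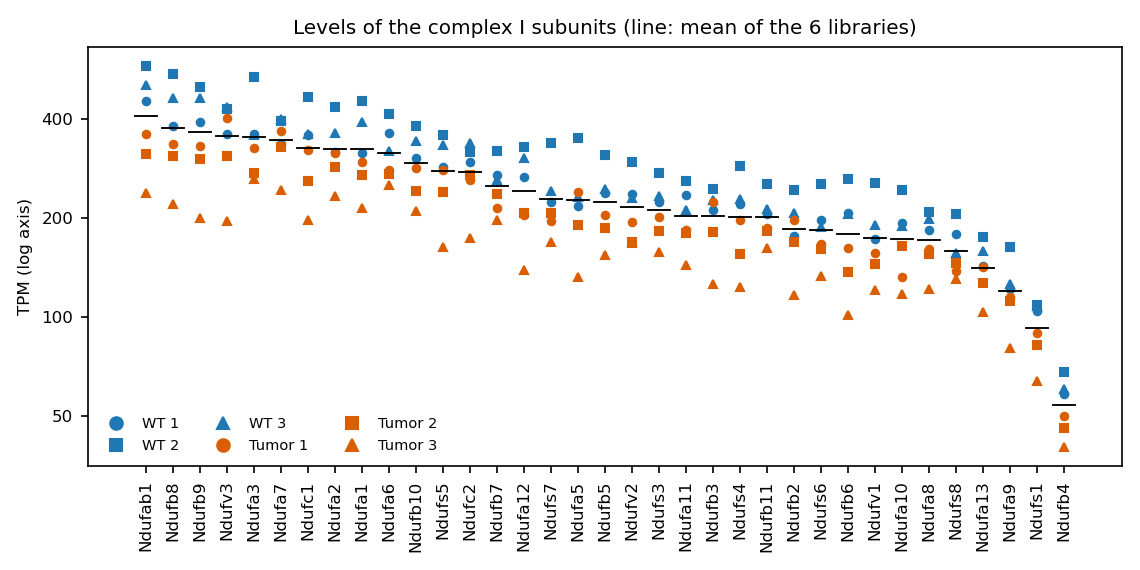
TPM of 35 subunits on a log axis, ordered by its mean over the 6 libraries (black line), with 1 symbol per library. Most subunits lie within a narrow band, and Ndufs1 and Ndufb4 stand lowest.

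The subunits of this complex were expressed at levels close to each other, and their order was much the same in every library. The median subunit had a mean of 225 TPM over the 6 libraries, and 32 of 36 lay between 150 and 450 TPM. Across the 36 genes, which are not independent replicates, Spearman's rho between any pair of libraries was between 0.867 and 0.968, over 15 pairs of libraries that share gene lengths and the quantification. Ndufab1, Ndufb8 and Ndufb9 led the order of means. Ndufab1 ranked between the first place and place 4 in single libraries. Ndufs1 held place 35 and Ndufb4 place 36 in all 6. The highest mean was 7.61 times the lowest.

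The low place of Ndufb4 goes with a second locus. Ndufb4 lies on chromosome 16 (37647170 to 37654453, GRCm38, GENCODE M21) and stood at 58.5, 68.1 and 60.5 TPM in the WT libraries and at 49.8, 45.8 and 40.3 TPM in the Tumor libraries. Ndufb4c, an intronless copy on chromosome 15 (73809507 to 73809896) that GENCODE calls a processed pseudogene and RefSeq a coding gene, was listed at 386, 421 and 414 TPM against 353, 320 and 218 TPM. All 387 coding bases of Ndufb4 are present in the copy without a difference. The first 150 bases of each, read from the GENCODE M21 transcripts, are shown with the start codon in capitals because reads from this stretch cannot be assigned to either locus.
Ndufb4: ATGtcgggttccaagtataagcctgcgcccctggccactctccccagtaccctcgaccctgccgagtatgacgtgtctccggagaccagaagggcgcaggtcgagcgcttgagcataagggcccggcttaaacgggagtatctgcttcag
Ndufb4c: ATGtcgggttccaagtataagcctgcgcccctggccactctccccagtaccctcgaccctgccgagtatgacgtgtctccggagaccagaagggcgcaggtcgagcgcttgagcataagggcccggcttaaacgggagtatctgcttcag
The copy took 84.4% to 87.6% of the TPM of both rows in each library. Summed over both, the levels were 444, 489 and 475 TPM in the WT libraries and 403, 366 and 258 TPM in the Tumor libraries, which would place the pair among the highest subunits. Of the other members, 6 had a copy elsewhere with at least 95% identity over at least 80% of the coding sequence. For Ndufab1 the copies were listed at 6.84% of the TPM of all its rows, and for Ndufa12, Ndufb3, Ndufb11, Ndufs3 and Ndufs5 at under 1%.

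The core subunits are spread over the genome, and the positions given here are those of GENCODE M21 on GRCm38. Ndufs1 lies on chromosome 1 from 63143596 to 63176833. Ndufs3 lies on chromosome 2 (90894634 to 90904827), Ndufs7 on chromosome 10 (80249121 to 80256794) and Ndufv2 on chromosome 17 (66078638 to 66101559). Ndufs8 (3908863 to 3912774) and Ndufv1 (4007384 to 4012806) both lie on chromosome 19. The promoters of the subunits were searched for the letters that are bound by factors known for nuclear genes of respiration. RefSeq promoter windows on GRCm38.p6, each from 250 bases before a start to 50 after it, were matched for 32 of the 36 genes in 34 windows. Both strands were read, and none of the motifs searched contains another. GCGCA and GCGC with 1 base of any kind between them, the letters of NRF1, were found in 8 of 34 windows (23.5%) and in 9.27% of the 13322 windows of genes tested. These 8 include overlapping windows of Ndufa5 that hold the same match, which is thus counted more than once. AAGATGGCG, the letters of YY1, was in 5 windows (14.7%) against 2.78%. CCGGAAG, the core read by ETS factors such as GABP, was in 4 windows (11.8%) against 16.4%, and TCAAGGTCA, read by ERR receptors, in 0 against 0.240%. These shares describe letters and not bound sites.

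The windows of Ndufs3, Ndufs6, Ndufs8 and Ndufb4 are shown from 250 bases before the start to 30 after it, on the minus strand that carries each gene, because they hold these letters close to the start (the core subunits Ndufs3 and Ndufs8 and the accessory subunit Ndufs6) or in several copies (Ndufb4). Capitals mark CCGGAAG or its complement in Ndufs3 (chr2:90904692-90904971) and Ndufs8 (chr19:3912745-3913024), and the NRF1 letters in Ndufs6 (chr13:73328453-73328732) and Ndufb4 (chr16:37654339-37654618).
Ndufs3: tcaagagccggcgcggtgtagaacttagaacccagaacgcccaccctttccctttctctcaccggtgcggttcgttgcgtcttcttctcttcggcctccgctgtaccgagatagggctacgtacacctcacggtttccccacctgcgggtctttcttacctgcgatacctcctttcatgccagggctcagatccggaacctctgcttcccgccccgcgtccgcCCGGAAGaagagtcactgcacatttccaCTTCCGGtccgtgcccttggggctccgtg
Ndufs8: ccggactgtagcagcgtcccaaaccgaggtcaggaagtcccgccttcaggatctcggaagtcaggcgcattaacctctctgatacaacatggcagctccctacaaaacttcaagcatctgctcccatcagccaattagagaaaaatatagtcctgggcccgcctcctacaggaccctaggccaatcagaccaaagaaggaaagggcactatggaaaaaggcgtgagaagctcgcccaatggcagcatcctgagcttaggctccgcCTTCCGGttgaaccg
Ndufs6: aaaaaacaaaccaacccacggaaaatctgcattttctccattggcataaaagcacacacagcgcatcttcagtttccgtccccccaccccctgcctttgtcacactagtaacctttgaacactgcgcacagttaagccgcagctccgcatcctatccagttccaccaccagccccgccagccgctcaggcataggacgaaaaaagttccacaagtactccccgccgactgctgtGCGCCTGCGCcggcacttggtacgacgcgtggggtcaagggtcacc
Ndufb4: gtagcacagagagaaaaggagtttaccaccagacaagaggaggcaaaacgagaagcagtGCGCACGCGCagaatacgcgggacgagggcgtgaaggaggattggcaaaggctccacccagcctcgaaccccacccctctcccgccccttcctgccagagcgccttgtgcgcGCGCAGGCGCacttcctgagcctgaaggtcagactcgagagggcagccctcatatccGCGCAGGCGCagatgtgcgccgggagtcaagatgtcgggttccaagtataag
In Ndufs3 the ETS letters begin 27 bases before the start and at the second base after it, and in Ndufs8 at base 16 after it. In Ndufb4 the NRF1 letters occur 3 times, beginning 191, 79 and 22 bases before the start, and in Ndufs6 once, 16 bases before it. These starts are those of the RefSeq windows. The GENCODE start of the gene lies further upstream, by 106 bases for Ndufs3, 85 for Ndufb4 and 60 for Ndufs6, and at the same base for Ndufs8. By GENCODE the letters at 27 (Ndufs3), 79 and 22 (Ndufb4) and 16 (Ndufs6) thus lie inside the gene. The YY1 letters were found in Ndufa9, Ndufc1, Ndufs4, Ndufs6 and Ndufs7, in all 5 between base 23 and base 36 after the start. In each of these 5 the ATG inside the letters opens the coding sequence, so the match also holds the start codon and the codon after it.

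The 7 subunits made by the mitochondrial genome, the proton channels and their neighbours, all had negative differences with a median of -0.47, and 2 of the 7 were free of overlap. Among all genes tested 23.2% had a negative difference and 3.24% were lower without overlap. mt-Nd1, which forms part of the ubiquinone channel, stood at 8758, 9900.3 and 10526 TPM in the WT libraries and at 6996, 6457 and 4969 TPM in the Tumor libraries (log2 difference -0.67, limma, SE 0.30, adjusted p = 0.737). By limma 0 of the 7 passed, and 0 had an unadjusted p below 0.05. Leaving out WT replicate 3 gave them a median of -0.24 and leaving out Tumor replicate 3 one of -0.20. It was -0.24 with the adipocyte level as a covariate and -0.22 with that of skeletal muscle. The sum of these transcripts was 2.49 to 4.40 times that of the nuclear subunits in the WT libraries and 2.86 to 3.43 times in the Tumor libraries.

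Assembly factors help to build complex I and do not stay in it. Of 19 measured, 16 had a negative and 3 a positive difference, 6 were lower without overlap, and the median was -0.19. Over all genes tested 23.2% had a negative difference, 3.24% were lower without overlap, and the median was 0.23. By limma 0 passed, and 1, lower, had an unadjusted p below 0.05. That gene was Ecsit, a factor of the early membrane intermediate that also acts in innate immune signalling, with 33.4, 36.9 and 37.4 TPM against 27.8, 28.0 and 25.8 TPM (log2 difference -0.39, limma, SE 0.14, adjusted p = 0.737). The sum of the assembly factors was 640.0, 632 and 631 TPM in the WT libraries and 585, 620.5 and 580.1 TPM in the Tumor libraries. Tumor was thus at 93.8% of WT for this sum and at 70.2% for the subunits. The sum includes Dmac2, 1 of the 3 factors with a positive difference. Dmac2 stood at 64.3, 45.5 and 31.1 TPM against 28.7, 81.4 and 123.7 TPM, highest in the lymphoid-rich Tumor replicates 2 and 3. With a Tumor mean at 166% of the WT mean, this gene raises the percentage of the sum. The median of the factors was -0.02 without Tumor replicate 3, -0.39 with median-ratio factors, -0.10 with the adipocyte covariate and -0.11 with the skeletal muscle covariate. Whether the difference of subunits and assembly factors exceeds the spread between libraries was not tested.

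Other enzymes also pass electrons to ubiquinone, among them succinate dehydrogenase, which is complex II, and the mitochondrial glycerol-3-phosphate dehydrogenase Gpd2. Of 10 such genes 8 had a negative difference, 5 without overlap, and the median was -0.45. Among all genes tested 23.2% had a negative difference and 3.24% were lower without overlap. Gpd2 had the smallest p, at 40.6, 32.6 and 32.5 TPM in the WT libraries and 15.6, 20.4 and 13.2 TPM in the Tumor libraries (log2 difference -1.07, limma, SE 0.21, adjusted p = 0.737). By limma 0 of the 10 passed, and 3 had an unadjusted p below 0.05, all lower, against 1.70% of all genes. Without Tumor replicate 3 the median was -0.26. The later complexes, given for comparison, had medians of -0.72 over 9 genes of complex III, -0.61 over 11 of complex IV and -0.45 over 15 of complex V. All 9, 11 and 14 of these genes had negative differences, with Atp5g1 of complex V as the exception. Every Tumor library was below every WT library for 9, 10 and 11 of the genes of complexes III, IV and V. By limma 0 passed, and 8, 7 and 6 had an unadjusted p below 0.05, all lower, against the same 1.70%. The smallest p values belonged to Uqcrfs1 (234, 279 and 244 TPM against 159.5, 165 and 120.1 TPM), Cox5b (749.9, 952 and 762 TPM against 579, 522 and 404 TPM) and Atp5o (446, 514 and 461 TPM against 346, 322 and 252 TPM). The complex I sum was 45.4%, 46.6% and 46.5% of the summed TPM of complexes III to V in the WT libraries and 48.3%, 48.5% and 47.0% in the Tumor libraries. This ratio was higher in every Tumor library than in any WT library, while the complex I sum itself was lower.

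**Figure D3:**
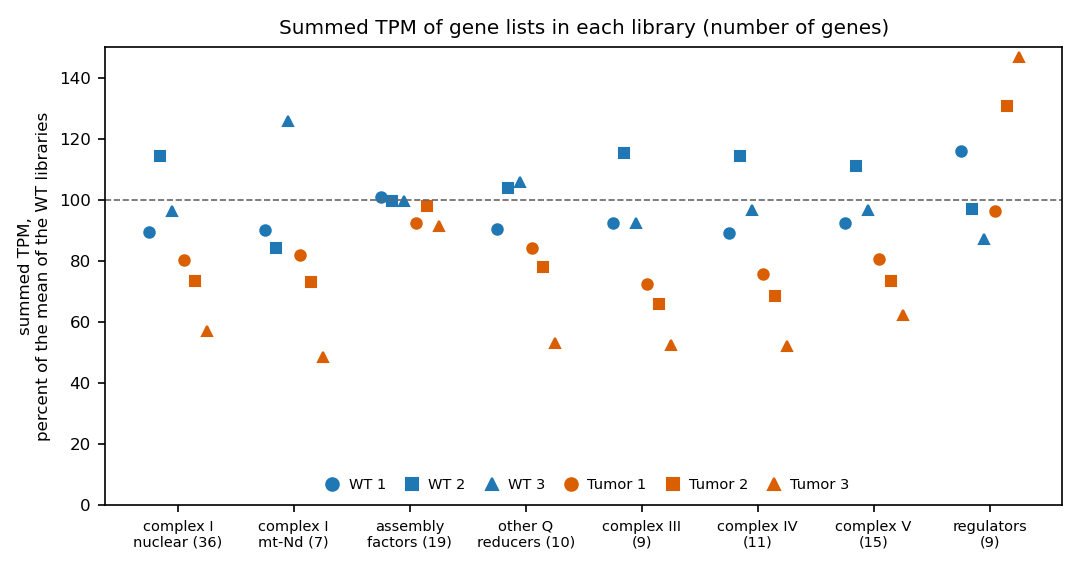
Summed TPM of each list as a percentage of its mean in the 3 WT libraries (dashed line at 100), with 1 symbol per library and the number of genes in parentheses. The nuclear subunits of complex I and complexes III to V share 1 pattern, and the regulators are highest in Tumor replicates 2 and 3. The assembly factors, Dmac2 among them, have a Tumor mean of 93.8%.

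As a list, regulators of mitochondrial gene expression did not follow the subunits, though some were lower in Tumor. Of 9 measured, 6 had a positive and 3 a negative difference. The median was 0.34, with single genes between -0.56 and 0.87. Among all genes tested 23.2% had a negative difference and the median was 0.23, so the signs of this list resembled those of genes at large. Tfam, which packages and transcribes the mitochondrial genome, had the smallest p, at 35.03, 29.7 and 26.7 TPM in the WT libraries and 30.5, 51.6 and 60.5 TPM in the Tumor libraries (log2 difference 0.58, limma, SE 0.28, adjusted p = 0.737). The groups overlapped, and the high values were those of the lymphoid-rich Tumor replicates 2 and 3. Nrf1 was at 15.6, 14.9 and 10.7 TPM against 12.1, 18.5 and 23.1 TPM. The coactivator Ppargc1a, among the 3 with a negative difference, was at 1.45, 1.96 and 2.46 TPM against 1.93, 1.56 and 0.783 TPM. These values are near the lower limit of the test. By limma 0 of the 9 passed, and 0 had an unadjusted p below 0.05. Their median was 0.13 with median-ratio factors, 0.16 without Tumor replicate 3 and 0.53 without Tumor replicate 1. Ndufa4, the complex IV subunit that carries a complex I name, was at 833, 1073 and 879.8 TPM against 766, 640.3 and 477 TPM (log2 difference -0.58, limma, SE 0.26, adjusted p = 0.737). Its relative Ndufa4l2 was at 9.82, 10.4 and 17.1 TPM against 17.4, 14.8 and 8.25 TPM, with the groups overlapping.

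**Figure D4:**
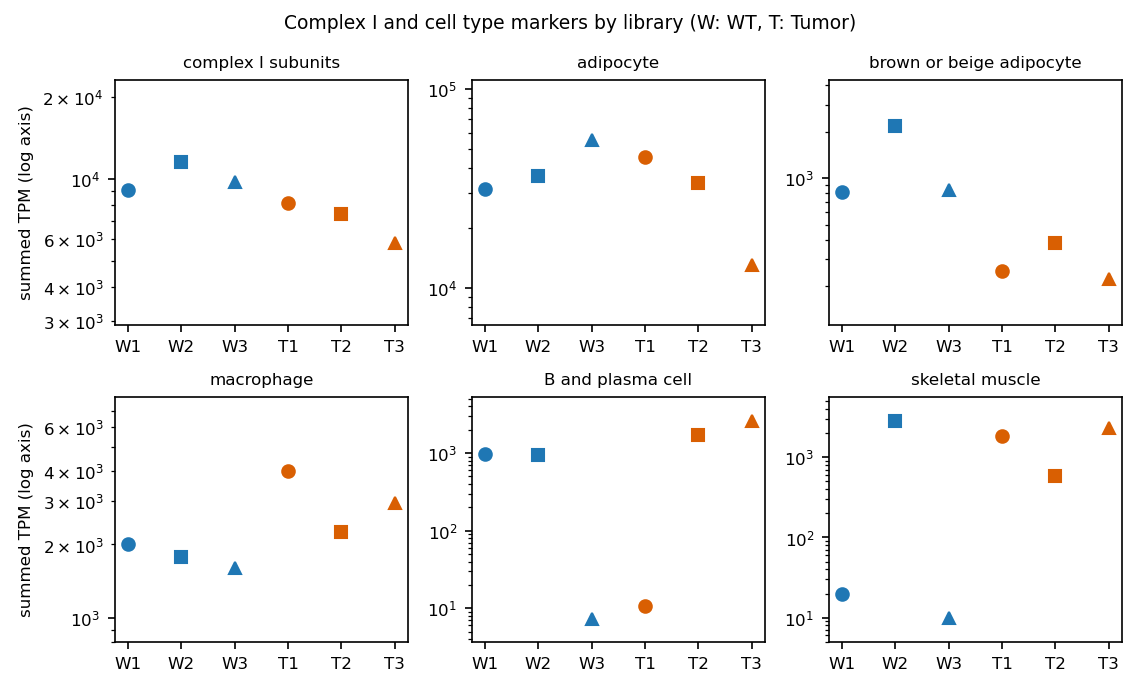
Summed TPM of the complex I subunits and of 5 lists of cell type markers in each library, each on its own log axis. Complex I and the brown or beige adipocyte markers are lower, and the summed macrophage markers higher, in all 3 Tumor libraries, and the other lists overlap between the groups.

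Markers of several cell types moved with the groups or with single libraries. The 6 brown or beige adipocyte markers, Ucp1 and Cidea among them, summed to 817, 2167 and 838 TPM in the WT libraries and to 252, 377 and 223 TPM in the Tumor libraries, and Elovl3 was listed at 0 in Tumor replicate 3. Cox8b was the largest part of this sum in every library, at 594.9, 1233.7 and 688.9 TPM against 213, 296 and 172 TPM. Ucp1 stood at 71.1, 507 and 15.7 TPM against 0.383, 2.21 and 2.27 TPM. WT replicate 2 had both the most brown or beige marker transcript and the most complex I, and without it the median log2 difference of the subunits was -0.39. The 7 macrophage markers summed to 2002, 1775 and 1597 TPM against 3973, 2245 and 2949.8 TPM. Singly, 3 of these 7 were higher without overlap, where 11.8% of all genes tested were, and 4 overlapped (Adgre1, C1qa, C1qb and Mrc1). A negative difference was found for 1 of the 7, Mrc1 (-0.14), where 23.2% of all genes tested had one. Lyz2 alone had means of 982 TPM in WT and 1927 TPM in Tumor. The adipocyte markers summed to 31179, 36561 and 55271 TPM against 45364, 33680.2 and 12933 TPM, lowest in the same library as complex I. Relative to this adipocyte sum, complex I stood at 0.291, 0.317 and 0.177 in the WT libraries and at 0.180, 0.221 and 0.448 in the Tumor libraries, with overlap. With the mean adipocyte level as a covariate the median difference of the subunits was -0.41, and without Tumor replicate 3 it was -0.37. All 36 differences were negative in both fits. Skeletal muscle markers summed to 19.5, 2799.7 and 9.83 TPM against 1830.5, 578 and 2332 TPM. WT replicates 1 and 3 were poor in muscle transcripts. WT replicate 2 had the most of all 6 libraries, and it also had the most brown or beige marker transcript and complex I. With the mean skeletal muscle level as a covariate the median difference of the subunits was -0.57. The part of skeletal muscle, brown or beige and macrophage transcripts in the difference was not tested.

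**Figure D5:**
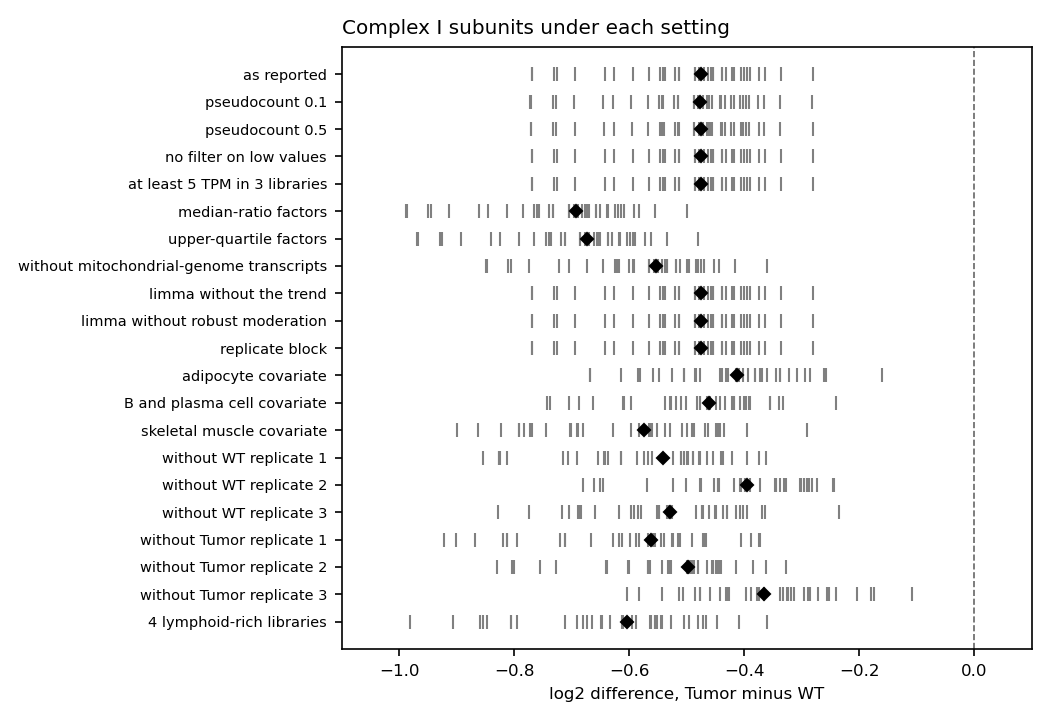
Log2 difference of each of the 36 subunits (ticks) and their median (diamond) with the values as reported and under 20 other settings. Every tick lies below 0 under every setting drawn. Filters, moderation options and the replicate block cannot move the ticks from the values as reported.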

How the data were processed

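Poly-A RNA of mouse subcutaneous white adipose tissue (integrity number above 7, TruSeq libraries, per the labels' protocols) was analysed in 6 libraries, 3 per group. The authors deposited 1 table whose name says raw counts and which holds TPM: the values are not whole numbers and add up to 1000000 in every column. GRCm38.p6 and DESeq2 are named in the submitters' processing notes with no role; how reads were aligned and quantified was not given in the sources used here. A rise of abundant transcripts in a library lowers all other TPM.

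Differences (Tumor minus WT) of log2(TPM + 1), which understates low genes, were fitted by limma 3.58.1 (R 4.3.3; trend and robust options on) for the 14144 genes reaching 1 TPM in 3 or more libraries, with Benjamini-Hochberg adjustment over all of them and a threshold of 0.05. The procedure was tested on simulated data. With 3 libraries a group, the smallest p of an exact two-sided permutation test is 0.1. Of the row names 26 are spreadsheet dates. Copies were sought with blastn 2.17.0 in GENCODE M21, sequences aligned with Biopython 1.88, and figures drawn with matplotlib 3.10.9.

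Values in every library are given for 6 core subunits, the highest and lowest member, the largest and smallest difference of each module, and the gene with the smallest p of each other list; any further gene was picked with its values in view. Of the members, 1 is counted in the sums, counts and medians but is not reported singly here. The members, the lists and the alternatives were chosen with earlier results of these data known. Same-numbered libraries are not from a stated shared source, and the block is given with the sensitivity of the results.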

Additional observations from a re-analysis of the deposited data

How the results depend on the processing

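All 36 subunits had negative differences under each of 20 alternatives, 720 values between -0.99 and -0.11, and 0 passed the adjusted threshold in any of them (smallest limma adjusted p of a subunit 0.311). The alternatives were pseudocounts, filters, scalings, moderation, a replicate block, covariates and libraries left out. The filters, the moderation options and the replicate block cannot change a log2 difference, so their values repeat those reported. The median was -0.69 with median-ratio factors, lay between -0.56 and -0.37 with any 1 library omitted, and ran from -0.69 to -0.41 otherwise. The complex V median was -0.67 with median-ratio factors. The count of 18 subunits at an unadjusted p below 0.05 was 31 with median-ratio and 31 with upper-quartile factors, 11 with the skeletal muscle covariate, and 0 to 20 with a library left out: 0 for WT replicate 2, 7 for WT replicate 3, 9 for WT replicate 1, 3 for Tumor replicate 3 and 4 for Tumor replicate 2. With the replicate number as a block it was 1. The correlation of deviations from the group means was -0.76, 0.20 and -0.84 for replicate numbers 1, 2 and 3. It was 0.85 between WT replicate 3 and Tumor replicate 1, the lymphoid-poor libraries. With differences in tissue content of this size, these values cannot tell whether same-numbered libraries shared a source or a batch. The block left the adjusted count at 0. The median stayed at -0.47, since a block with 1 library of each group per replicate number cannot change the differences. The cause of these moves was not tested. With the B and plasma cell covariate 1 of all genes passed. Ndufa4l2 turned from 0.09 to -0.11 with median-ratio and -0.095 with upper-quartile factors, and lay between -0.11 and 0.38 with a library left out, negative without WT replicate 1 or 2 or Tumor replicate 1 or 2. Gabpa, at 0.23 as reported, lay between -0.0047 (WT replicate 2) and 0.36 with a library left out, and Atp5g1 was -0.0065 with median-ratio factors. Library totals are not known, so counting error cannot be given.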
